A study of Drosophila melanogaster with 3 samples.

Results

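The Elav and Bruno families of RNA-binding proteins comprise 6 genes of Drosophila melanogaster, elav, fne, Rbp9, bru1, bru2 and bru3, and the binding of CG32006-GFP in and around them is described here. A peak belonged to a gene when its summit, the base of highest signal, lay in the gene body or within 5 kb of it. By this rule 18 of the 11665 peaks of the deposited optimal list (0.154%) belonged to the 6 genes, of 13945 protein-coding genes in all. Chromatin immunoprecipitation with sequencing (ChIP-seq), which maps where a protein sits on the genome, had been carried out on 3 biological replicates of whole prepupae, males and females pooled. The animals came from 1 transgenic line in which a C-terminal GFP tag is fused to CG32006, and the tag was the target of the antibody. There was 1 group and no second genotype or treatment, so the values below are descriptions and no test was made. Prepupa is the labelled stage, and the age of 48 days that stands beside it does not belong to that stage and was not used. Because whole animals were used, it cannot be told apart whether a peak came from neurons, muscle, germ line or other cells.

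The Elav proteins bind RNA through RNA recognition motifs and are homologous to the Hu proteins of vertebrates. ELAV, the founding member, is found in all neurons and directs neuronal splicing and the use of distal polyadenylation sites. FNE, whose name stands for found in neurons, can take over part of this work, and RBP9 acts in neurons and in the female germ line. Bruno proteins are the fly members of the CELF family. The best studied, bru1, also known as arrest, represses translation of oskar mRNA in the oocyte and sets the splicing pattern of fibrillar flight muscle, whereas bru2 and bru3 are its less well studied relatives. For CG32006 itself the RefSeq gene table lists the synonym FoxJ1, a forkhead transcription factor name. In vertebrates FOXJ1 switches on genes of motile cilia, and forkhead proteins bind DNA words such as TGTTTAC. No optimal peak and no weaker pooled region lay within 5 kb of CG32006 itself (0 of each).

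The summit sequences show what the peaks of these genes look like as DNA. Windows reached 50 bp to either side of the summit. Of the 18 windows, 6 (33.3%) held the forkhead word TGTTTAC, its variant TATTTAC or its variant TGTTTAT, all 3 read on both strands, against 10.9% of all optimal windows. These 6 are printed because they carry a word. They are dm6 plus-strand sequences from the RefSeq Release 6 genome, 5′ to 3′, with the word in capitals in whichever orientation it occurs.
elav peak 2, chrX:523449-523549: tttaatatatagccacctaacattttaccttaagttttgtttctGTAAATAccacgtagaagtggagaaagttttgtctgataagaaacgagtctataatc
fne peak 2, chrX:12915205-12915305: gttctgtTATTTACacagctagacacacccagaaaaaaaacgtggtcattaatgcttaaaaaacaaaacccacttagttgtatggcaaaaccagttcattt
Rbp9 peak 3, chr2L:2972683-2972783: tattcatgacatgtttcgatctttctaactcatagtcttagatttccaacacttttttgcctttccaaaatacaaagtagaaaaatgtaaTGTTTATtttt
bru1 peak 2, chr2L:12193181-12193281: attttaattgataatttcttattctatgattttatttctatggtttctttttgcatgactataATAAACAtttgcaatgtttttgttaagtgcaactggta
bru1 peak 4, chr2L:12212576-12212676: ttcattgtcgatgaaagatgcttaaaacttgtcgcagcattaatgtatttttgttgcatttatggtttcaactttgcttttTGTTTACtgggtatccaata
bru2 peak 3, chr2L:12366105-12366205: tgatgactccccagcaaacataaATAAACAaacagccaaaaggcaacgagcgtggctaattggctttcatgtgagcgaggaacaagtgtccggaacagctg

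The word in the elav window is TATTTAC on the minus strand, and that of fne peak 2 is TATTTAC on the plus strand. Rbp9 peak 3 has TGTTTAT on the plus strand, and bru1 peak 2 and bru2 peak 3 have it on the minus strand. Only bru1 peak 4 has TGTTTAC. By word, TGTTTAC was in 1 window of the 6 genes (5.56%, against 2.23% of all optimal windows), TATTTAC in 2 (11.1% against 4.18%) and TGTTTAT in 3 (16.7% against 4.98%). The excess was not the same in the replicates. In each replicate's own list of its 11665 strongest peaks, 4 of 20 windows of these genes held a word in replicate 1 (20.0%, against 11.2% of all), 7 of 18 in replicate 2 (38.9% against 10.4%) and 2 of 19 in replicate 3 (10.5% against 11.0%). Replicate 3 was thus at the level of the whole list. Of 4 other words searched on both strands, TAATTA was in 1 window of the 6 genes (10.6% of all windows), and CTTTGAA (3.14%), TCGATA (3.73%) and GAGAGAG (1.27%) were in 0. A word in a window is a description of the sequence and not a binding site.

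Of the 4 strongest peaks, 2 held a forkhead word (elav peak 2 and Rbp9 peak 3) and 2 did not (Rbp9 peaks 1 and 2). The windows of elav peak 1 and Rbp9 peak 2 are printed for comparison, the first as the most GC-rich summit of the 18 and the other as the strongest peak inside Rbp9.
elav peak 1, chrX:522592-522692: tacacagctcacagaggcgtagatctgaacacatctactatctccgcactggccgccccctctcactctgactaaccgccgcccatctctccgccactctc
Rbp9 peak 2, chr2L:2957670-2957770: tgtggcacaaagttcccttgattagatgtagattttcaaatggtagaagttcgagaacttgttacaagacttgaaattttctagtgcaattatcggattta

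The summits of the 6 genes lay in AT-rich DNA on average, as those of the whole list did, but with a wide spread. Mean GC content was 34.7% at the summits and 40.6% in windows 500 bp to either side, a difference of -6.00 percentage points ± 12.7 (SD over 18 peaks). Over all optimal peaks it was 32.9% at summits and 43.6% in the flanks, a difference of -10.8. The summit was the lower in 12 of the 18 peaks (66.7%), against 83.5% of all. The 10 Elav peaks differed from their flanks by -6.68 and the 8 Bruno peaks by -5.14, with the summit lower in 8 and in 4. In the replicates' own lists the difference for the 6 genes was -12.1, -9.57 and -8.57. Elav peak 1 ran the other way, with 58.4% GC at the summit and 35.1% in the flanks. Replicates 1 and 2 put their own summits there 181 and 199 bp away from it. The steepest dips were at Rbp9 peak 3, with 26.7% against 55.4%, and at bru1 peak 2, with 22.8% against 49.0%.

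**Figure D1:**
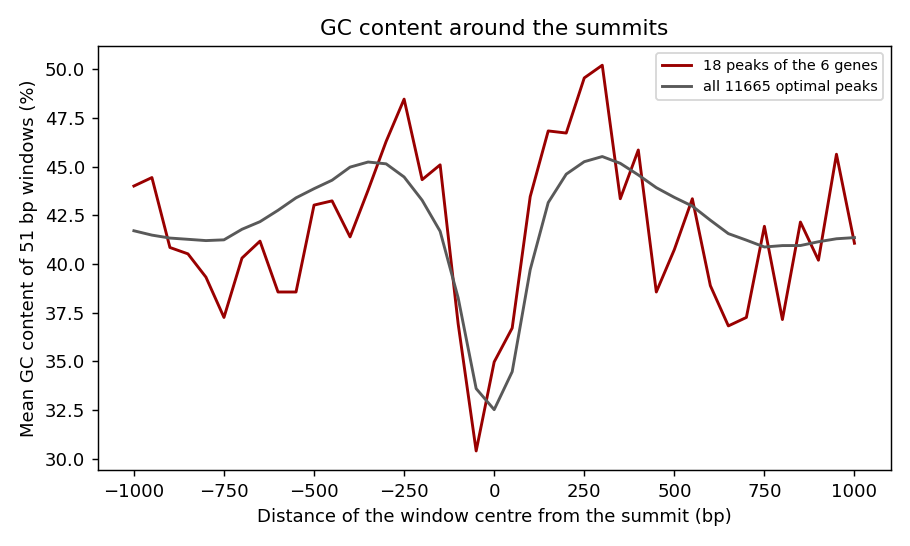
Mean GC content (%) of 51 bp windows against the distance of the window centre from the summit (bp), for the 18 peaks of the 6 genes and for all 11665 optimal peaks. Both lines dip around the summit, and the line of 18 peaks is the noisier one. The line of all peaks is lowest at 0 bp (32.5%). That of the 18 peaks is lowest at -50 bp (30.4%) and stands at 35.0% at 0 bp.

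The 5 genes other than bru3 each had 3 or 4 peaks, and bru3, the longest of the 6, had 0. The counts were 3 for elav, 4 for fne, 3 for Rbp9, 4 for bru1 and 4 for bru2. So 5 of 6 genes had a summit in the body or within 5 kb, where 54.1% of all protein-coding genes did. Within the gene body alone the counts were 1 for elav, 1 for fne, 2 for Rbp9, 4 for bru1, 4 for bru2 and 0 for bru3, so most of the elav and fne peaks lay outside the transcribed region. In the replicates' own lists the 6 genes held 20, 18 and 19 peaks (19.0 ± 1.0, SD, n = 3). By gene, in the order of replicates 1 to 3, elav had 2, 3 and 3, Rbp9 had 4, 3 and 4, fne had 5, 4 and 8, bru1 had 3, 5 and 2, bru2 had 6, 3 and 2, and bru3 had 0 in each. These are counts of summits, and overlapping calls of the same site were counted separately. Such calls were at fne and Rbp9 in replicates 1 and 3. The count of 0 at bru3 was the same in each, those of elav and Rbp9 varied by 1, and those of fne, bru1 and bru2 overlapped over the replicates, so the order among these 3 is within their spread. Peaks of elav supported by both remaining replicates numbered 3 without replicate 1 but 1 without replicate 2 and 1 without replicate 3.

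With the 5 kb margins, peak density was higher at each Elav gene than at each Bruno gene. The strongest peaks were at elav and Rbp9. The 3 Elav genes span little sequence, 90.6 kb with the margins, and held 10 peaks, or 1.10 per 10 kb. The 3 Bruno genes, in 503 kb, held 8 peaks, or 0.159 per 10 kb, which is below the 0.871 per 10 kb of the whole genome list. By gene the density was 1.25 at elav, 0.932 at fne and 1.27 at Rbp9, and 0.269 at bru1, 0.632 at bru2 and 0 at bru3. The Bruno value is lowered by bru3, whose 281494 bp added length but no peak. In gene bodies alone, elav had 1 peak in 13992 bp, fne 1 in 32941 bp and Rbp9 2 in 13673 bp. There bru1 had 4 in 138435 bp and bru2 4 in 53310 bp. The order by gene did not hold without the margins, since bru2 was then denser than elav and fne. The ratio of Elav over Bruno density was 6.94, and 6.79, 6.94 and 20.8 in the lists of replicates 1, 2 and 3. The 20.8 rests on 15 Elav-family calls, overlapping ones at fne and Rbp9 counted separately, and 4 Bruno-family calls. With gene bodies only the ratio was 3.90. When support by both remaining replicates was required, it was 12.5 without replicate 1, 11.1 without replicate 2 and 6.48 without replicate 3. Elav-family peaks had signals of 225 to 3418 with a median of 389, and Bruno-family peaks 201 to 469 with a median of 274. The deposited signal has no stated scale and is compared only within a list. The strongest Elav-family peak had a signal of 893, 1246 and 1316 in replicates 1, 2 and 3, against 150, 171 and 141 for the strongest Bruno-family peak, so the Elav maximum was the higher in each replicate. The family medians did not keep that order. They were 182 and 79.3 in replicate 1, 144 and 114.7 in replicate 2, and 111 and 119 in replicate 3, with the Elav family given before the Bruno family each time. The 4 strongest Elav-family peaks, at elav and Rbp9, were above all Bruno-family peaks in the optimal list, and the other 6 lay within the Bruno range.

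**Figure D2:**
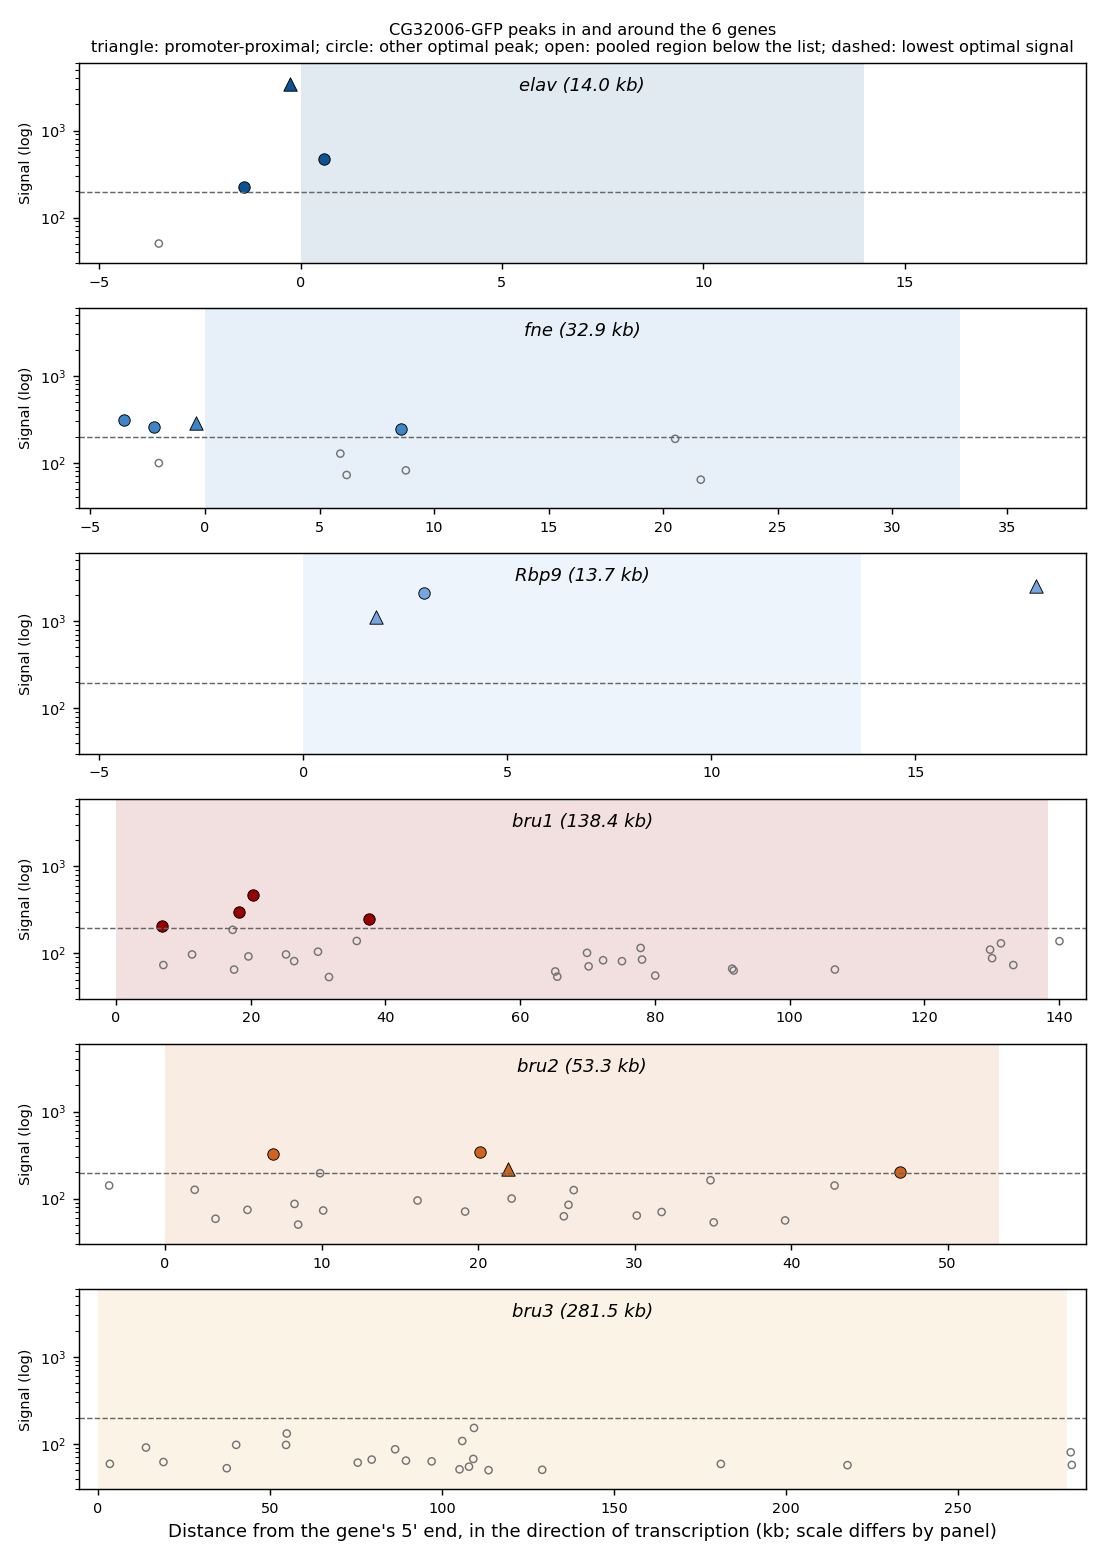
Signal on a log scale against distance from the gene's 5′ end (kb, in the direction of transcription), 1 panel per gene with the gene body shaded and its own distance scale. Filled triangles are promoter-proximal optimal peaks of any gene, filled circles other optimal peaks, open circles pooled regions below the optimal list, and the dashed line the lowest optimal signal (197). The 4 highest points are in the elav and Rbp9 panels, the bru1 peaks crowd towards the 5′ end, and all bru3 points are open.

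The elav gene (FBgn0260400, dm6 chrX:509235-523226, minus strand, 2 start sites) carried the strongest peak of all 18. Peak 2 (chrX:523241-523720) has its summit 273 bp upstream of an elav transcription start site (TSS), inside arg, which encodes an arginase, and its signal of 3418 placed it 224th of 11665. Its signal was 893 in replicate 1, 1246 in replicate 2 and 1316 in replicate 3, at ranks 292, 201 and 183 of the replicate lists, so all 3 replicates put it near the top. An optimal peak is called supported by a replicate when its summit lies inside one of that replicate's 11665 strongest peaks. Support goes by signal rank, and the signal given for a replicate is that of its strongest region covering the summit. On the flanks of peak 2 were weaker peaks that not all replicates supported. Peak 1 (chrX:522510-522812, signal 465) lies in an elav intron 584 bp downstream of a TSS, and also inside arg and the non-coding gene lncRNA:enrr. It was supported at 189 by replicate 2 and at 168 by replicate 3. Replicate 1 had its own peak at chrX:522801-522971 with a signal of 185, whose summit was 181 bp away. The summit of the replicate 2 peak was also outside peak 1, 199 bp away, and that of replicate 3 was 31 bp away. Peak 3 (chrX:524383-524852, signal 225), 1392 bp upstream in an intron of arg, had signals of 49.8, 83.7 and 85.8 and missed the list of replicate 1. Elav was the only 1 of the 6 genes whose strongest peak was at its own promoter.

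Rbp9 (FBgn0010263, chr2L:2954762-2968434, plus strand, 3 start sites) had strong peaks only. All 3 were supported by all 3 replicates, and the pooled list of 30000 regions held 0 weaker regions around the gene. Peak 1 (chr2L:2956331-2956747, signal 1104) lies 365 bp upstream of an internal TSS of Rbp9 and had signals of 311, 360 and 416 in replicates 1, 2 and 3. Peak 2 (chr2L:2957481-2957960, signal 2097), in an intron 809 bp from the nearest Rbp9 TSS, had signals of 681, 623 and 791. Peak 3 (chr2L:2972425-2972987, signal 2544) had 744, 946 and 885. It counts for Rbp9 only through the 5 kb margin. Its summit is past the 3′ end of Rbp9 and 158 bp from a TSS of gammaTub23C, which encodes a gamma-tubulin, and Rrp1, which encodes a DNA repair endonuclease, has a TSS within 500 bp as well. In each replicate the order of signal was elav peak 2, then Rbp9 peaks 3, 2 and 1, with no overlap to the other 14 peaks. Those reached at most 150, 189 and 168 in replicates 1, 2 and 3.

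At fne (FBgn0086675, chrX:12917477-12950417, plus strand, 4 start sites) the peaks were weak and lay mostly ahead of the gene. Peak 3 (chrX:12916846-12917315, signal 290) is at the promoter, 396 bp upstream of the TSS, with signals of 80.7, 76.1 and 140. By rank it was supported by all 3 replicates, though its replicate 2 region had a −log10 q of only 1.55. The 80.7 and 140 are of overlapping regions with summits 583 and 578 bp upstream, outside the 500 bp promoter limit. The promoter-proximal regions there had 69.3 in replicate 1 and 105 in replicate 3. Peak 1 (chrX:12913721-12914190, signal 314), 3521 bp upstream between genes, was the strongest and had 98.2, 98.8 and 131. Peak 2 (chrX:12915020-12915489, signal 258), 2222 bp upstream in the non-coding gene lncRNA:CR45626, had 64.3, 91.3 and 93.6. The intronic peak 4 (chrX:12925809-12926278, signal 248), 8560 bp from a TSS, had 71.8, 67.7 and 88.5 and missed the list of replicate 2. Over the replicates, the ranks of the strongest regions covering the 4 summits ran from 7080 to 12073. A further region at chrX:12937769-12938238, 513 bp from another fne TSS, had a pooled signal of 189 and fell 394 ranks short of the optimal list, although replicate 3 held it at rank 10791.

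Among the Bruno genes, bru1 (FBgn0000114, chr2L:12175004-12313438, plus strand, 6 start sites) had 4 intronic peaks and none at a promoter. All 4 lay in the 5′ 27.2% of the gene, each between 5980 and 8095 bp from the nearest bru1 TSS. The strongest, peak 3 (chr2L:12195111-12195580, signal 469), had signals of 150, 171 and 141 and was supported by all 3 replicates, as was peak 2 (chr2L:12192996-12193465, signal 303) with 77.0, 123 and 100. Peak 4 (chr2L:12212391-12212860, signal 245) had 68.2, 100 and 66.6, which sufficed in replicates 1 and 2. Peak 1 (chr2L:12181593-12182062, signal 209) had 43.6, 107 and 66.1 and was supported by replicate 2 alone. By rank within the lists, replicate 2 held peaks 1, 2 and 4 highest, and for peak 3 replicate 1 (5222) and replicate 2 (5335) were close. Between the last bru1 peak and the first bru2 peak, 138 kb apart, the optimal list had 0 summits, and the genes themselves are 30.8 kb apart.

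The bru2 gene (FBgn0262475, chr2L:12344219-12397528, plus strand, 5 start sites) had 3 intronic peaks and 1 at an internal promoter. Peak 2 (chr2L:12364136-12364605, signal 348) had signals of 81.9, 131 and 122, and peak 1 (chr2L:12350885-12351354, signal 324) had 81.1, 125 and 116, and all 3 replicates supported both. The promoter peak 3 (chr2L:12365920-12366389, signal 219), 211 bp from a bru2 TSS, had 90.8, 75.6 and 56.4 and missed the list of replicate 3. Peak 4 (chr2L:12390948-12391417, signal 201), 21347 bp from the nearest bru2 TSS, had 67.8 in replicate 1, 64.4 in replicate 2 and no region in replicate 3. It was near the end of the list, at rank 11434, and its support came from replicate 1 alone. The threshold was as close on the other side. The strongest bru2 region left out had a signal of 196 and fell 21 ranks short, and replicate 1 held it at rank 9593 of its own list.

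No peak was called at bru3 (FBgn0264001, chr3L:13521907-13803400, minus strand, 3 start sites), and none was in any replicate's list. The nearest optimal summit lay 8664 bp past its 3′ end, in a peak (chr3L:13513037-13513409, signal 1244) 11 bp from the TSS of Liprin-beta, which encodes a synaptic scaffold protein. The region was not blank in the data. The pooled list held 23 weaker regions there, the strongest (chr3L:13693877-13694346) with a signal of 153 and 2439 ranks short of the optimal list. In the whole lists of 30000 regions, replicates 1, 2 and 3 had 12, 36 and 11 regions at bru3. The strongest had signals of 41.7, 70.2 and 57.7, each below the 62.9, 70.7 and 78.1 that the 11665th region of the same replicate had. Replicate 2 came nearest, at rank 11741. Of the bru3 regions, 0, 0 and 2 in replicates 1, 2 and 3 had a −log10 q of at least 2.

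Long genes usually had peaks, and among them bru1 was below the median and bru3 had none. Of the 83 protein-coding genes of at least 100 kb, 78.3% had a summit, with a median of 6 and up to 53 at kirre, which encodes an adhesion protein of fusing myoblasts. Of the 2 members of that length, bru1 had 4, and 35 of the 83 (42.2%) had 4 or fewer. The other, bru3, was among the 18 with 0. Of the 8 genes at least as long as bru3, itself included, 6 had 0 peaks, namely bru3 and 5 longer genes. They differed in their weaker regions. Of the 18 long genes without a peak, 12 had no weaker pooled region at all (0), and bru3 and Gfrl had the most, 23 each. A limit of 23 pooled regions, strong or weak, equals the number at bru3 itself. Among the 52 long genes with at least that many, 2 had no peak, namely bru3 and Gfrl, and the median share that reached the optimal list was 30%. That share was 12.9% of 31 regions for bru1. For the members under 100 kb it was 16.7% of 24 for bru2, 40% of 10 for fne, 75.0% of 4 for elav and 100% of 3 for Rbp9. Mappability of these genes was not analysed here.

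**Figure D3:**
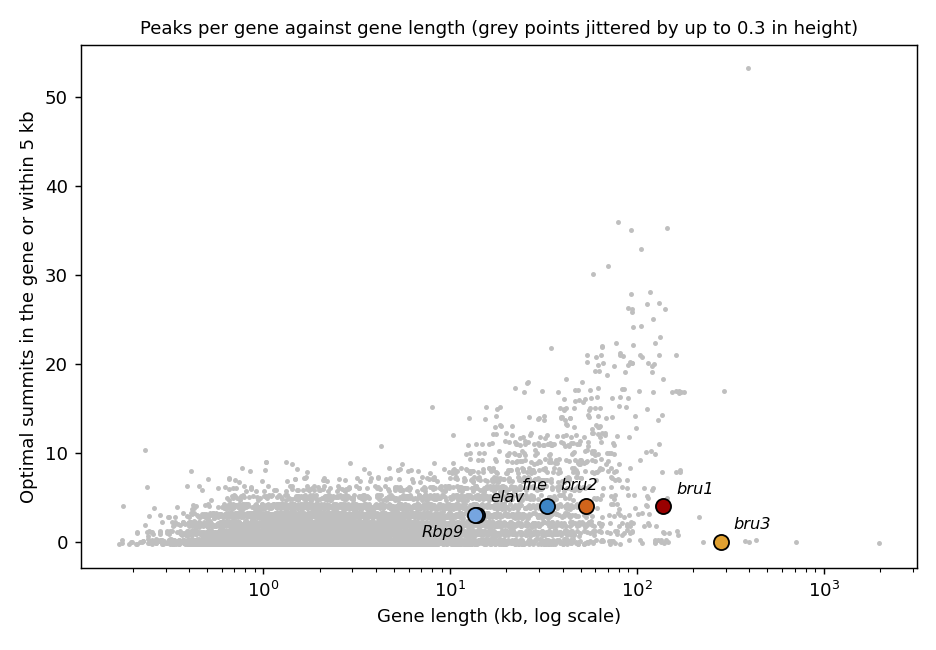
Optimal summits in the gene body or within 5 kb of each protein-coding gene against gene length (kb, log scale), with all genes in grey, jittered in height, and the 6 genes in colour. Elav and Rbp9 overlap at 3 peaks near 14 kb (13992 and 13673 bp), bru1 has 4 at 138435 bp and bru3 has 0 at 281494 bp.

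By place, 5 of the 18 peaks (27.8%) were promoter-proximal, meaning within 500 bp of the TSS of any protein-coding gene, and 11 (61.1%) were intronic. Of all optimal peaks, 22.9% were promoter-proximal and 50.9% intronic, so the 6 genes were near the whole list. The remaining 2 peaks, both at fne, were intergenic (peak 1) and within a non-coding gene (peak 2), and none was in a coding exon or a UTR outside promoters. A summit within 500 bp of the gene's own TSS was present for 4 of the 6 genes (elav, fne, Rbp9 and bru2), against 19.1% of protein-coding genes. The 6 genes have 2 to 6 start sites and a median length of 43.1 kb, against 2.17 kb for all genes. Among 29 other RNA-binding protein genes, of median length 36.8 kb, the share was 65.5%. Each replicate's list had such a summit at elav, fne and Rbp9, and replicates 1 and 2 had it at bru2. With the promoter defined as 200 bp, none of the 6 genes had an own-promoter summit (0), since these summits lay 211 to 396 bp from the TSS.

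Promoter-proximal peaks of the 6 genes had a higher median signal than intronic ones, with wide overlap. Median signal was 1104 over the 5 promoter-proximal peaks and 303 over the 11 intronic peaks, a ratio of 3.65, against 541 and 441, a ratio of 1.22, over all optimal peaks. The ratio in the replicates' own lists was 2.36, 2.39 and 3.75. The promoter-proximal peaks include Rbp9 peak 3, at the gammaTub23C promoter, and with gene bodies only the ratio was 2.11. With promoters of 200 bp it was 8.12, with no peak at a promoter of the 6 genes themselves. The promoter-proximal signals ran from 219 at bru2 to 3418 at elav, and the intronic ones from 201 at bru2 to 2097 at Rbp9. At Rbp9, fne and bru2 a peak outside the gene's own promoter was the stronger. Gene-body summits lay towards the 5′ end, with 11 of 12 (91.7%) in the 5′ 50% of the gene, against 64.5% of 6457 summits in all genes of at least 10 kb. The counts were 12 of 14, 11 of 12 and 10 of 12 in replicates 1, 2 and 3. Of the weaker pooled regions in the 6 gene bodies, 47 of 71 (66.2%) were in that part, close to the 62.2% of all genes.

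Peaks of the 6 genes had a lower median signal than the list, and a smaller share was supported by all 3 replicates. Neither difference was tested. Their median signal was 308, against 443 for the whole list, and 12 of 18 were below that median. Among the strongest 50% of the list the order turned, with the 6 peaks left at 1.91 times the median of that part. The ratio of the medians was 0.695, and 0.601, 0.742 and 0.685 in the replicates' own lists. All 3 replicates supported 11 of the 18 (61.1%), against 73.6% of all optimal peaks, and 5 were supported by 2 replicates, 2 by 1 and 0 by none. Signal moved with support. The 4 peaks with a signal of at least 500 were all supported by 3 replicates, against 93.2% of such peaks in the list, and of the 14 weaker ones 7 were, against 58.0%. Replicates 1, 2 and 3 supported 15, 16 and 14 of the 18 (83.3%, 88.9% and 77.8%), against 89.7%, 88.0% and 88.0% of all. By family, 7 of 10 Elav peaks and 4 of 8 Bruno peaks were supported by all 3. Rank and −log10 q differed at some peaks. Supporting replicate 2 regions at elav, fne and bru2 peaks 3 had 1.84, 1.55 and 1.53. Regions too low in rank had 2.30 at elav peak 3 (replicate 1), and in replicate 3 4.43 at bru1 peaks 1 and 4 and 3.04 at bru2 peak 3. Requiring at least 2 instead also gave 61.1%, with bru1 peak 4 in place of fne peak 3. Because the optimal list was called on the pooled replicates, support by replicates is not independent of it.

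**Figure D4:**
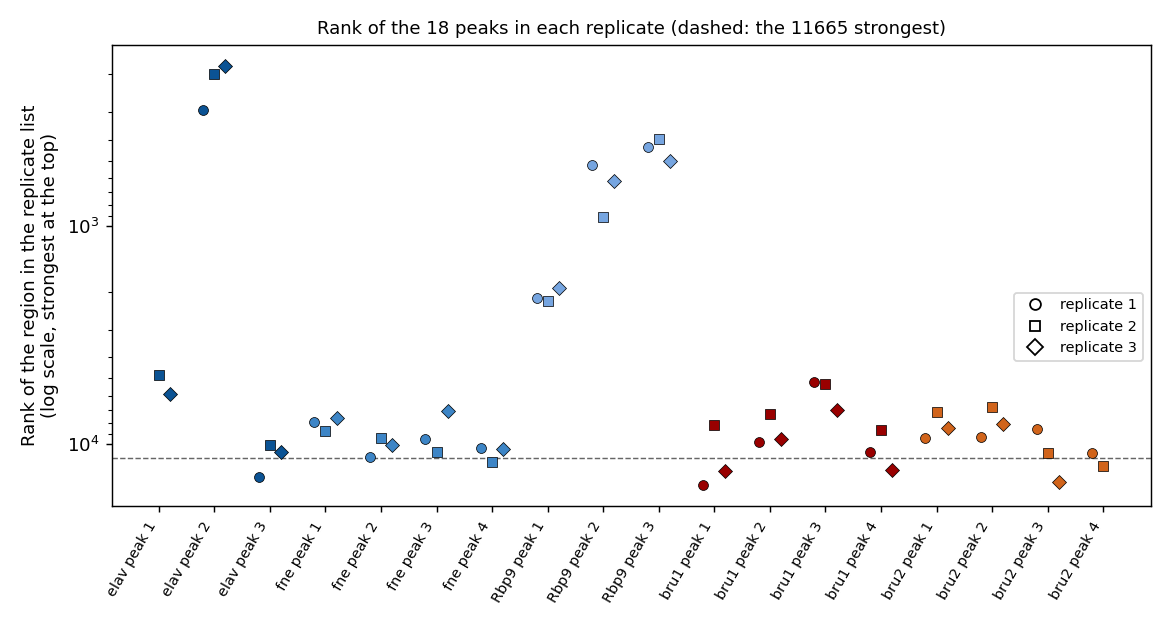
Rank of the strongest region covering each of the 18 summits in the lists of replicates 1, 2 and 3 (log scale, strongest at the top), with the dashed line at rank 11665. Elav peak 2 and the 3 Rbp9 peaks lie far above the rest in all replicates, whereas the weak peaks straddle the line. A missing point means that the replicate had no region at the summit.

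Other RNA-binding protein genes gave a background closer in kind and length than all genes. Of the 6 genes, 83.3% had a peak and 66.7% an own-promoter summit, against 25 (86.2%) and 19 (65.5%) of 29 other such genes of neurons, muscle and germ line. The 6 genes had a median of 3.5 peaks and 0.782 per 10 kb, at a median length of 43.1 kb. The 29 genes had 5 peaks and 0.937 per 10 kb at 36.8 kb, and all protein-coding genes 1 peak and 0.588 per 10 kb at 2.17 kb. By these shares the Elav and Bruno genes were close to other RNA-binding protein genes. The strongest own-promoter peaks of that list were those of larp (La-related protein, 7459), msi (Musashi, 4204), sm (an hnRNP L homologue, 2130) and shep (2049), each supported by 3 replicates. The elav promoter peak, at 3418, would stand between msi and sm. Sex-lethal (Sxl), a splicing regulator whose RNA-binding domains resemble those of Elav proteins, had 5 peaks, with 679 at its promoter. There were 0 peaks at ssx, Hrb98DE, tra2 and snf. Of 10 genes whose RNAs are known targets of Elav or Bruno proteins, 7 (70%) had a peak and 4 (40%) an own-promoter summit. These were sls, the flight-muscle titin (2075, 3 replicates), Strn-Mlck (365, 2 replicates), arm, the fly beta-catenin (254, 1 replicate) and Nrg, the neuronal adhesion protein Neuroglian (204, 0 replicates). The muscle genes Mhc and wupA and the germ-line gene grk had 0 peaks.

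Genes with the most similar peak counts over the 3 replicate lists were sought by the sum of absolute differences, with ties broken by gene length. For elav these were CG31523 and FASN1, each with 2, 3 and 3 peaks and a difference of 0, as had 79 genes in all. For Rbp9 they were mRpS9 and egh, also at 0, as were 82 genes, and for bru1 they were Elk and CG42541, at 0 with 7 genes. No gene matched fne or bru2 exactly (0 genes). The nearest to fne were ND-15 and Tie, and the nearest to bru2 CG15803 and sstn, each at a difference of 1. For bru3, 4988 genes shared the counts of 0, 0 and 0, and Snap25 and DIP-lambda were nearest in length, at 225 kb and 379 kb. With counts this small many genes match by count alone.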

How the data were processed

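Peak lists of 3 biological replicates were used. Per the labels, chromatin was fragmented by sonication and pulled down with an anti-GFP antibody. The authors deposited, in dm6, a list of 30000 regions per replicate, a pooled list of 30000 regions and an optimal list named as thresholded by the irreproducible discovery rate (IDR). The optimal list equals the 11665 pooled regions of highest signal. The deposited signal values, which the authors made on a scale the files do not state, were used only within a list. The deposited −log10 q values were used to count regions of at least 2 (14910, 9587 and 17614 in replicates 1, 2 and 3). They also entered an alternative support rule, and were set beside support by rank where the 2 rules differed. Not given in the sources used here are the caller, aligner, IDR cut-off and depth. A control alignment and the dm3 lists were not analysed here. Depth is unknown, so no interval that needs it is given.

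Summits were the start plus the deposited offset, and 9 offsets past the peak end (0 among the 18 peaks) were set to the last base. Genes came from the Ensembl annotation (release 115) and sequence from the RefSeq Release 6 genome, which share dm6 coordinates. Coordinates count from 1. A summit outside promoters was assigned to a coding exon before a UTR, to a UTR before an intron, and to an intron before a non-coding gene. Counts, medians and window sequences were computed in Python 3.11.15 with pandas 2.3.3 and numpy 2.4.6, and the counting was tested on simulated peaks. The genes named are the 6 genes, genes with a TSS within 500 bp of their summits, the most similar genes by count, and up to 4 of each comparison list by promoter signal. Genes named for having 0 peaks, Sxl, and kirre, Gfrl and Liprin-beta were chosen after their values were seen. Of 30 listed RNA-binding protein genes, nos had no unique match and was left out. The 6 genes and all lists were chosen with earlier results of these data known. Alternatives were other margins, promoter distances, support rules, summit windows and flanks, and repeated coordinates counted once. Others were each replicate's own list, the strongest 50% of the optimal list, and leaving out each replicate.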

Additional observations from a re-analysis of the deposited data

How the results depend on the processing

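Of the alternative values computed, 98 stayed within the limits set for each result and 48 moved beyond them. Some of the 98 had little or no room to move. Counting repeated coordinates once was 1 such alternative, as 0 of the 18 peaks had a repeated row. The own-promoter count and the share of gene-body summits in the 5′ 50% do not depend on the margin. Those limits were wide for some results. They passed 12 peaks in gene bodies against 18, and a density ratio of 12.5 without replicate 1 against 6.94. With gene bodies only, the promoter over intron signal ratio was 2.11, support by all 3 replicates 50%, the Elav over Bruno density ratio 3.90, and elav and fne had 1 peak each. With a margin of 10 kb, the ratio was 2.60, fne had 7 peaks and bru3 had 1. Among the strongest 50% of peaks, 6 peaks and 2 own-promoter genes were left, with 0 peaks at fne, 1 at bru1 and 0 at bru2. The median signal was then 1.91 times that of all peaks in the strongest 50%, the promoter over intron ratio 5.42, support 83.3% and the Elav over Bruno density ratio 27.8. With promoters of 200 bp, 0 genes had an own-promoter summit and the ratio was 8.12, and with 1000 bp it was 4.46. Support was 88.9% with lists of 2 times the length and 55.6% with a reciprocal overlap of 50%. In replicate 1's own list the median signal ratio was 0.601, the promoter over intron ratio 2.36 and the GC difference -12.1. These last 2 were 2.39 and -9.57 in replicate 2. Replicate 3 gave 8 peaks at fne with overlapping calls counted separately, 2 at bru1, 2 at bru2, a GC difference of -8.57 and a density ratio of 20.8. With flanks 1000 bp away the GC difference was -9.19. When 1 replicate was left out and support by both others was required, the promoter over intron ratio ran from 3.29 to 5.43, the median signal ratio from 0.622 to 0.650, the density ratio from 6.48 to 12.5, and counts from 1 to 3 at elav, 2 to 3 at bru1 and 2 to 3 at bru2. The cause of these shifts was not tested. No paired analysis was possible because there is 1 group.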
